A study of Mus musculus with 6 samples.

Results

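The mammary gland genes described here are 10 genes of the mammary lineages and of milk production, taken by name: the lineage factors *Elf5*, *Gata3*, *Foxa1* and *Trp63*, the prolactin pathway genes *Prlr*, *Stat5a* and *Stat5b*, and the milk protein genes *Csn2*, *Csn3* and *Wap*. Rows for 9 of them were found among 17428 genes, and *Csn2* was not analysed here. RNA had been sequenced from EpH4, a near-normal mouse mammary epithelial cell line, in 3 stages with 2 biological replicates each. E cells were never exposed to TGFβ1, M cells had been kept with TGFβ1 for 7 days and had taken a fibroblast-like shape, and RE cells were M cells cultured for another 4 days without TGFβ1. All stages grew in the same medium with fetal bovine serum and recombinant human insulin, and prolactin and glucocorticoids are not among its listed supplements. EpH4 is 1 line in culture, so that the values describe this line only.

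In the mammary gland, an inner luminal layer of cells lies on an outer basal layer. *Gata3* and *Foxa1* encode transcription factors of luminal cells, *Elf5* encodes an Ets factor of the luminal cells that go on to make milk, and *Trp63* encodes p63, the transcription factor that marks basal cells. Prolactin binds its receptor, the product of *Prlr*, whose bound kinase Jak2 phosphorylates Stat5a and Stat5b. These then enter the nucleus and switch on the milk protein genes, among them *Csn3* (κ-casein) and *Wap* (whey acidic protein). In these bulk libraries, fewer cells of a type and less RNA per cell cannot be told apart.

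The values are coverage, that is, sequenced bases summed over each gene. They are given in ppm of the library total after normalization (TMM), as the value in each library or as mean ± SD (n = 2). The libraries held between 35782513 and 47928557 reads' worth of 50 bases. Between the 2 libraries of a stage, log2 differences over genes had an SD of 0.558 in E, against 0.318 in M and 0.309 in RE, so the E libraries were the least alike. The 13893 genes that reached 500 bases in 2 or more libraries were compared with limma on log2(ppm + 0.1), and a difference was called where the log2 fold change exceeded 1, up or down, with a Benjamini-Hochberg adjusted p below 0.01. In total, 8 of the 9 genes passed this filter and *Wap* did not. *Elf5* passed through both M libraries and 1 RE library, *Prlr* through both RE libraries and 1 E library, and *Csn3* through the E and M libraries, so these 3 genes were tested because they were high somewhere. Coverage of 3 reads' worth or less (150 bases) was treated as the floor. In the check of the cell line, 6 of 6 epithelial markers were above the floor in at least 1 library of every stage, with summed levels from 1575 to 1941 ppm in E, 1366 to 1401 in M and 873 to 926 in RE, although the luminal keratin *Krt19* did not exceed 0.162 ppm in any library. Markers of adipocytes were at the floor for 4 of 4 genes in every stage, those of leukocytes summed to at most 0.544 ppm with *Ptprc* and *Cd3e* at the floor throughout, and those of endothelial cells summed to at most 0.56 ppm in E and RE and to 2.73 ppm in M, most of it from *Cdh5*. Their part in the results was not tested.

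The 3 upstream sequences shown next belong to *Elf5*, *Prlr* and *Stat5a*, 3 genes whose coverage changed between stages and which have an entry in the RefSeq promoter table (build GRCm38.p6, which is newer than the NCBI-m37 build used for mapping). Each is the 250 bases before 1 annotated start site. The table lists 2, 3 and 2 start sites for these genes, and those shown are the ones with a match to any of 3 motifs searched on both strands. The motifs were TTCNNNGAA, the form of site bound by Stat5, the E-box CAGGTG bound by Snail and Zeb factors, which reads CACCTG on the other strand, and AGATAA, bound by Gata factors. Matches are in capitals, and none overlapped another.
*Elf5*, first start site (chr2:103411848-103412097, + strand): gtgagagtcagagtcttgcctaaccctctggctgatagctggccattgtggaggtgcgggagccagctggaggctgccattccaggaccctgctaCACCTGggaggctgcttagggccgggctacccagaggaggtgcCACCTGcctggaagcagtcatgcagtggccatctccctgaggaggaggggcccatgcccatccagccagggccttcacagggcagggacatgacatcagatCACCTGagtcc
*Prlr*, second start site (chr15:10223656-10223905, + strand): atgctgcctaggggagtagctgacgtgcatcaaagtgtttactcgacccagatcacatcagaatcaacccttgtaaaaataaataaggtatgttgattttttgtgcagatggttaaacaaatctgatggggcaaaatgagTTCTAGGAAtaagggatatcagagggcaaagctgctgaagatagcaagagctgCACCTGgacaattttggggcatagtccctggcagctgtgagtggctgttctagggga
*Stat5a*, first start site (chr11:100859406-100859655, + strand): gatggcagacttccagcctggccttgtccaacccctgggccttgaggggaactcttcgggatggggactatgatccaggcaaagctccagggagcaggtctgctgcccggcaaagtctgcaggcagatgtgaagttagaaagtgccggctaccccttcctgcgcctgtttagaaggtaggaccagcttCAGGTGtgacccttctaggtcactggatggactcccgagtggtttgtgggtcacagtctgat
The *Elf5* window holds the E-box letters 3 times, starting 155, 112 and 11 bases before the start site. The *Prlr* window holds TTCTAGGAA, which starts 110 bases before the start site, and 1 E-box, which starts 57 bases before it. The *Stat5a* window holds 1 E-box. The window of *Foxa1*, not shown, also holds 1 E-box, which starts 23 bases before the start site. *Foxa1* was not called in any comparison. Of all 32851 promoter windows of this length, 7.02% hold TTCNNNGAA, 17.2% hold CAGGTG and 9.99% hold AGATAA, so that a single match is not rare. The windows shown were chosen for holding a match, so these shares cannot serve as a measure for them. Such matches describe letters and not bound sites.

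Genes are compared with each other only per length, as ppm per kb of the exons in GENCODE M21. This annotation is newer than the one behind the table. The length joins the exons of all transcripts of a gene, such as 4152 bases for *Csn3* and 15339 for *Prlr*. It can exceed the transcript that a cell makes, which understates the level. Ranks on this scale depend on that choice. On this scale, *Gata3* was the highest of the 9 genes in every stage, at 12.3 ± 0.121 in E, 20.7 ± 1.0 in M and 23.6 ± 1.65 in RE. *Trp63* came next in E and RE, at 8.39 ± 1.92 and 19.7 ± 1.21 ppm per kb, and in M it was at 5.93 ± 0.861, below *Stat5b* at 7.93 ± 0.86. In the E cells the ranges of *Trp63*, *Stat5b* and *Stat5a* overlapped in this order from neighbour to neighbour. In the RE cells those of *Trp63* and *Gata3* did not overlap, whereas those of *Stat5a* (9.45 to 11.5 ppm per kb) and *Stat5b* (9.44 to 10.7) did. The other 5 genes stood well below these 4. *Foxa1* was at 0.642 ± 0.178 ppm per kb in E, *Csn3* at 0.373 ± 0.0266 and *Prlr* at 0.0175 ± 0.00364, while *Elf5* reached its highest level in M at 0.492 ± 0.00181. Of these 9 genes, the luminal factor *Gata3* and the basal factor *Trp63* were thus among the 4 with the highest coverage per kb. *Foxa1*, also a luminal factor, was far lower in every stage, as were *Elf5*, *Prlr*, *Csn3* and *Wap*.

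**Figure D1:**
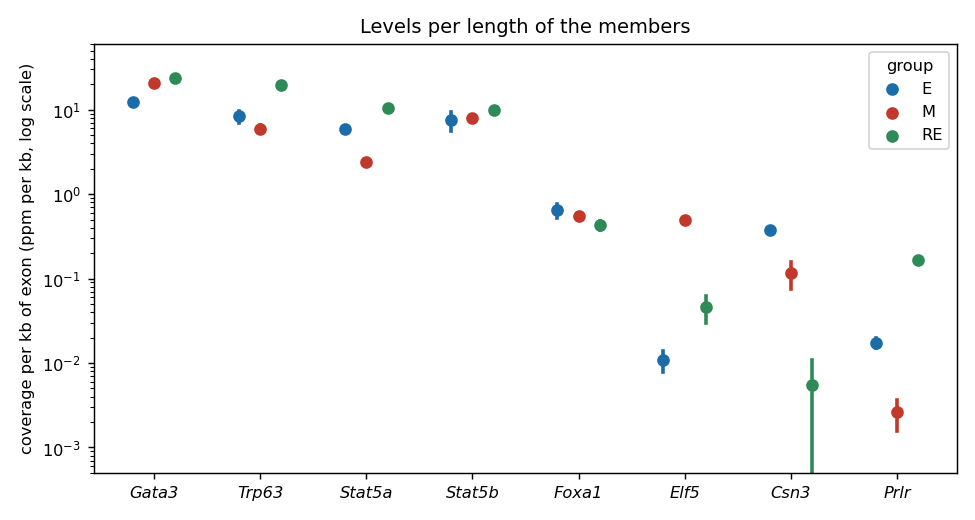
Coverage per kb of exon (ppm per kb, log axis) of 8 genes in E, M and RE cells, with the mean as a point and a line from the lower to the higher of the 2 libraries (the line of *Csn3* in RE runs off the axis because 1 library is at 0). *Gata3*, *Trp63*, *Stat5a* and *Stat5b* lie above 2 ppm per kb in every stage and the other 4 genes below 1.

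*Elf5* was the lineage factor that moved most. Its coverage was 0.0463 and 0.0812 ppm in the E libraries, 2.90 and 2.88 ppm in the M libraries and 0.176 and 0.367 ppm in the RE libraries. The 3 stages did not overlap, and the M libraries stood far above all others, although the first E library was at the floor and the E level rests on 5 reads' worth in all, against 240 in M and 24 in RE. *Elf5* rose from E to M (log2 fold change 4.2, SE 0.36, limma adjusted p = 0.000135), and the ratio of reads was 47.2 with a 95% counting interval from 20.0 to 147. It fell from M to RE (−3.06, SE 0.36, limma adjusted p = 0.000701), a ratio of 11 with an interval from 7.22 to 17.5. By reads, the RE cells were at 4.30 times the level of the E cells, with an interval from 1.61 to 14.4 that leaves out the spread between libraries. This difference was not called (1.14, limma adjusted p = 0.0465). Without the first or the second M library the decrease to RE missed the adjusted p threshold (0.0131 and 0.0124 by limma), while the rise in M was called without any 1 library.

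*Gata3*, the main luminal factor, was at 49.2 and 48.5 ppm in the E libraries, 79.7 and 85.3 in the M libraries and 89.1 and 98.4 in the RE libraries. Both M and both RE libraries lay above both E libraries. The difference passed the adjusted p threshold but not the fold threshold in E vs. M (log2 fold change 0.75, SE 0.13, limma adjusted p = 0.00306) and in E vs. RE (0.94, SE 0.13, adjusted p = 0.00235), so that neither was called. In fits of the 2 stages alone, both missed the adjusted p threshold (0.0137 for M and 0.0147 for RE by limma). With library totals, E vs. M missed it (limma adjusted p = 0.0262) while E vs. RE passed (0.00468). The other settings that kept all libraries passed in both. Leaving out single libraries gave E vs. M values of 0.70 to 0.80 and E vs. RE values of 0.87 to 1.01. Between M and RE the difference was 0.18 with a 95% interval from −0.11 to 0.48. *Foxa1*, a partner of the estrogen receptor in hormone-sensing luminal cells, was at 1.72 and 2.56 ppm in E, 1.85 and 1.86 in M and 1.25 and 1.61 in RE. It was not called in any comparison, with 95% intervals of the log2 difference from −0.81 to 0.47 in E vs. M, −0.997 to 0.28 in M vs. RE and −1.17 to 0.11 in E vs. RE. A small share of the exon bases of *Gata3* (3.90% and 1.94%) is shared with an antisense and a sense transcript in GENCODE M21, whose reads cannot be told apart from its own.

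*Trp63*, the basal factor, was at 59.0 and 81.7 ppm in the E libraries, 44.7 and 54.9 in the M libraries and 173 and 158 in the RE libraries. The RE libraries stood above the 4 others, and the lower E library was close to the higher M library. It was 3.32-fold higher in RE than in M (log2 fold change 1.74, SE 0.19, limma adjusted p = 0.000502) and 2.35-fold higher than in E (1.25, SE 0.19, adjusted p = 0.00346). The difference between E and M was not called (−0.49, limma adjusted p = 0.0735). Against the E cells, the increase missed the adjusted p threshold in a fit of E and RE alone (0.0145 by limma) and without the first or second M library (0.0111 and 0.0110) or RE library (0.0537 and 0.0316). Against the M cells it missed it without the first RE library (0.0109). The log2 fold change itself stayed between 1.01 and 1.49 against E and between 1.59 and 1.88 against M without 1 library at a time.

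**Figure D2:**
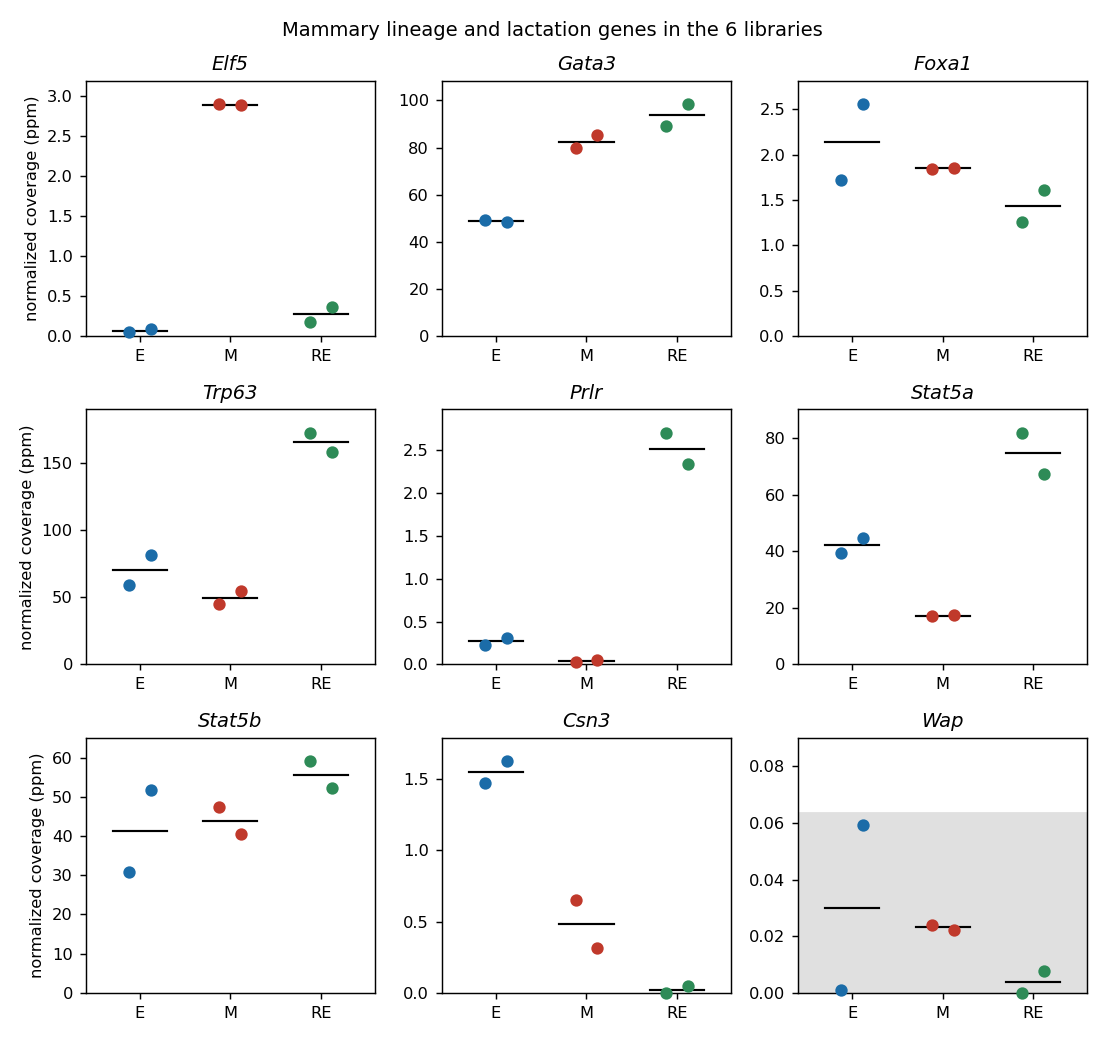
Normalized coverage (ppm, linear axes from 0) of the 9 genes, with 1 point per library, a line at the mean of the 2 libraries, and E, M and RE cells from left to right. *Elf5* is high in M alone, *Trp63*, *Prlr* and *Stat5a* are highest in RE and lowest in M, *Csn3* steps down from E to M to RE, and all *Wap* points lie within the grey band of 3 reads' worth.

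The prolactin receptor gene, *Prlr*, was barely covered in E, lower still in M and highest in RE. Its coverage was 0.229 and 0.308 ppm in the E libraries, 0.024 and 0.0558 ppm in the M libraries and 2.70 and 2.33 ppm in the RE libraries. The stages did not overlap, and both M libraries were at the floor. The RE level was at least 34.8-fold higher than the floor of the M libraries (log2 fold change 4.23 on a scale that depends on the pseudocount, limma adjusted p = 8.59e-05), and this was called without any 1 library. It was 9.38-fold higher in RE than in E (2.83, SE 0.32, limma adjusted p = 0.00122). By reads' worth that comparison rests on 22 against 230, with a 95% counting interval of the ratio from 6.03 to 15.2, and its adjusted p was 0.0273 without the first and 0.018 without the second RE library by limma. The E level was at least 3.71-fold higher than the floor of the M libraries, just outside the threshold (−1.40, limma adjusted p = 0.011). This difference was called with library totals and with a pseudocount of 0.025 (limma adjusted p = 0.00674 and 0.00684). It was also called with the threshold set at 0.05. It was not called without the filter, with a replicate block or in a fit of E and M alone (0.0112, 0.0123 and 0.0436 by limma). With a pseudocount of 1 it shrank to −0.29 (limma adjusted p = 0.0904). Leaving out single libraries gave values of −1.58 to −1.24.

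The signal transducer *Stat5a* went the same way at far higher coverage. It was at 39.4 and 44.7 ppm in the E libraries, 17.1 and 17.4 in the M libraries and 81.9 and 67.4 in the RE libraries, with no overlap between stages. It fell 2.44-fold from E to M (log2 fold change −1.28, SE 0.15, limma adjusted p = 0.000622) and rose 4.33-fold from M to RE (2.10, SE 0.15, adjusted p = 7.23e-05). The RE cells were above the E cells by 0.82 on the log2 scale, which passed the adjusted p threshold but not the fold threshold (limma adjusted p = 0.00729). By limma, it missed the adjusted p threshold too with library totals (0.0113), without the filter (0.0111) and with a replicate block (0.0122). The same held in a fit of E and RE alone (0.0297). Without 1 library at a time, this log2 fold change ran from 0.68 to 0.96. The decrease in M missed the adjusted p threshold without the first or the second M library (0.0121 and 0.011 by limma), and the rise from M to RE was called without any 1 library.

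Its near-copy *Stat5b*, which lies next to it on chromosome 11, was at 30.7 and 51.8 ppm in E, 47.3 and 40.6 in M and 59.1 and 52.3 in RE. The RE libraries were the highest, but the E libraries differed from each other by more than the stage means did. None of its differences was called, with 95% intervals from −0.43 to 0.70 in E vs. M, −0.22 to 0.91 in M vs. RE and −0.09 to 1.04 in E vs. RE. Per kb of exon, *Stat5a* was at 0.997 and 0.67 of *Stat5b* in the E libraries, 0.28 and 0.333 in the M libraries and 1.08 and 1.0 in the RE libraries, so the balance of the 2 transcripts shifted to *Stat5b* in M. This ratio is given as a description with no test. Of the 50-base words of their GENCODE transcripts, 8.52% of those of *Stat5a* and 11% of those of *Stat5b* also occur in transcripts of another gene, and reads from words that lie at more than 1 place in the genome could not have been placed uniquely. *Stat5a* also overlaps *Stat3* on the opposite strand over 72 exon bases, whose reads have 1 place in the genome.

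The κ-casein gene *Csn3* fell step by step. Its coverage was 1.47 and 1.62 ppm in the E libraries, 0.652 and 0.313 ppm in the M libraries, and 0 and 0.0455 ppm in the RE libraries. The stages did not overlap, and both RE libraries were at the floor. The E level was at least 23.5-fold higher than the floor of the RE libraries (log2 fold change −3.77 in E vs. RE, limma adjusted p = 0.000962), and the M level was at least 7.33-fold higher (−2.21, adjusted p = 0.00521). The step from E to M, a ratio of 3.20 by reads with a counting interval from 2.23 to 4.69, was not called (−1.56, limma adjusted p = 0.017). Among the alternatives it was called with library totals (adjusted p = 0.00819) or with the threshold set at 0.05. The comparison with E missed the threshold without the first or second RE library (0.0176 and 0.0103 by limma). The comparison with M missed it without either M library (0.0567 and 0.0134), without either RE library (0.0519 and 0.021) and with a pseudocount of 1 (0.027).

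The whey acidic protein gene, *Wap*, held at most 3 reads' worth in every library: 2 and 114 bases in E, 50 and 46 in M, and 0 and 17 in RE. No difference in it was detectable at this depth. It was at the floor in every stage, so that *Csn3* alone of the 3 milk protein genes could be compared.

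**Figure D3:**
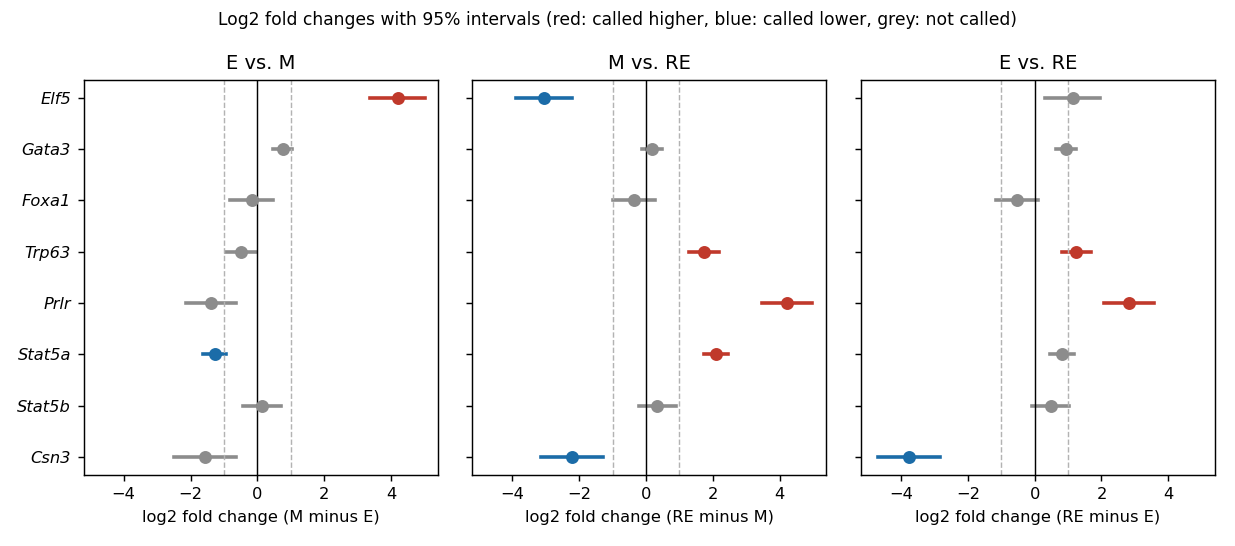
Log2 fold changes (points) with 95% intervals (lines) of the 8 genes tested, in E vs. M, M vs. RE and E vs. RE, with dashed lines at the fold threshold. Red marks genes called higher in the second group, blue those called lower and grey those not called: *Elf5* and *Csn3* go down from M to RE while *Trp63*, *Prlr* and *Stat5a* go up.

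Counted over the 8 genes tested, 1 was higher (*Elf5*) and 1 lower (*Stat5a*) in M than in E, against a background of 17.0% of all genes called in E vs. M (8.58% higher and 8.39% lower in M). In M vs. RE, 3 were higher (*Prlr*, *Stat5a*, *Trp63*) and 2 lower (*Elf5*, *Csn3*) in RE, where 12.9% of all genes were called (8.08% higher and 4.79% lower). In E vs. RE, 2 were higher (*Prlr*, *Trp63*) and 1 lower (*Csn3*) in RE, where 9.37% of all genes were called (6.20% higher and 3.17% lower). The libraries of the 2 stages did not overlap for 6, 8 and 8 of the 8 genes, but they did not overlap for 70.6%, 78.1% and 66.7% of all genes either. The 3 comparisons share libraries and are not independent of each other. The genes were also chosen with earlier results of these data known, so these counts are a description. The counts depend on single libraries: without either M library, 1 gene was called in E vs. M and 3 in M vs. RE, without the first RE library 3 were called in M vs. RE, and without either RE library 0 were called in E vs. RE by limma, with 6 and 5 genes at an unadjusted p below 0.05.

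Among 16 further genes of luminal cells, 11 were tested. This list and those of the next paragraphs were chosen with earlier results of these data known. Their shares of called genes are therefore a description. In E vs. M, 3 rose and 3 fell in M (54.5% called, against 17.0% of all genes), with a median log2 fold change of −0.05 against 0.00 over all genes. *Elf3*, an Ets factor of epithelia, was at 20.0 ± 6.38 ppm in E, 2.93 ± 0.314 in M and 16.9 ± 1.13 in RE, and it fell in M (log2 fold change −2.70, limma adjusted p = 0.000158) and rose again in RE (2.49, adjusted p = 0.00026). *Myb*, which encodes another transcription factor, followed the same course at 4.98 ± 0.145, 0.989 ± 0.102 and 4.91 ± 0.241 ppm, with −2.22 (limma adjusted p = 0.000186) in E vs. M. *Tbx3*, a T-box factor, and *Cd14*, a surface marker of luminal progenitors, rose in M (1.61 and 1.38, limma adjusted p = 0.00142 and 0.00338). In M vs. RE, 4 rose and 1 fell in RE (45.5%, against 12.9%), with a median of 0.31 against −0.02 over all genes. *Runx1* was the gene that fell from M to RE (−1.25, limma adjusted p = 0.00112). In E vs. RE, 3 rose and 0 fell (27.3%, against 9.37%), with a median of 0.67 against 0.01 over all genes, and *Cd14* was among those that rose (1.46, limma adjusted p = 0.00469). Without either M library or either RE library, 0 were called there by limma, with 3 to 5 at an unadjusted p below 0.05.

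Of 14 further genes of basal and myoepithelial cells, 13 were tested, and 6 rose and 1 fell in M against E (53.8% called, against 17.0% of all genes, with a median log2 fold change of 1.16, against 0.00). The tested genes *Krt5*, *Cnn1* and *Lgr5* were under 500 bases in both libraries of at least 1 stage, so that they were tested through the stages where they were higher. *Acta2*, the smooth muscle actin of myoepithelial cells, rose from 0.466 ± 0.302 ppm in E to 79.2 ± 5.04 in M (log2 fold change 7.24, limma adjusted p = 1.38e-05) and was at 3.94 ± 0.149 in RE, still above E (2.95, adjusted p = 0.00133). *Jag1*, a Notch ligand, rose from 21.9 ± 11.3 to 341 ± 34.5 ppm in M (4.05, limma adjusted p = 9.2e-05) and fell to 50.6 ± 5.49 in RE (−2.75, adjusted p = 0.000667). *Id4*, an inhibitor of helix-loop-helix factors, fell in M (−2.60, limma adjusted p = 0.00418) and rose in RE (3.85, adjusted p = 0.000906). It was at 1.51 and 1.29 ppm in E, 0.0719 and 0.252 in M and 2.28 and 5.2 in RE. The first M library was at the floor, so both of its log2 fold changes depend on the pseudocount. In M vs. RE, 2 rose and 5 fell in RE (53.8%, against 12.9%, median −0.38, against −0.02), and in E vs. RE 2 rose and 0 fell (15.4%, against 9.37%, median 1.03, against 0.01). *Cnn1*, the calponin of contractile cells, rose in RE against M (2.67, limma adjusted p = 0.000822) and against E (2.80, adjusted p = 0.00125), at a low level of 1.72 ± 0.0963 ppm. It passed the filter through the 2 RE libraries alone, so its adjusted p is a description, and it is 1 of the 2 basal genes called in E vs. RE. Without the first or second RE library, 0 of the basal genes were called in E vs. RE by limma, with 6 and 4 at an unadjusted p below 0.05. *Acta2* and *Cnn1* are also general smooth muscle genes, and *Acta2* is a known target of TGFβ1 in many cells.

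Of 20 further genes around prolactin signalling, 17 were tested. *Jak2*, the kinase bound to the prolactin receptor, was at 64.6 and 70.2 ppm in E, 112 and 111 in M and 74.5 and 71.2 in RE, with both M libraries above the others. Its differences were under the fold threshold (E vs. M: log2 fold change 0.73, limma adjusted p = 0.00308, and M vs. RE: −0.62, limma adjusted p = 0.00808). In E vs. M, 2 rose and 2 fell in M (23.5% called, near the 17.0% of all genes, with a median of 0.43, against 0.00). *Socs2*, a feedback inhibitor, and *Akt1*, a kinase of insulin and growth factor signalling, rose (1.17 and 1.07, limma adjusted p = 0.0032 and 0.000573). *Cebpb* and *Nfib*, which encode factors that act with Stat5 at milk protein genes, fell (−1.58 and −1.08, limma adjusted p = 0.00274 and 0.000938). In M vs. RE, 4 rose and 1 fell in RE (29.4%, against 12.9%, median 0.10, against −0.02). *Id2*, whose product is needed for alveolar growth, rose from 6.32 ± 0.624 to 42.8 ± 2.07 ppm (2.74, limma adjusted p = 0.000337), *Nfib* rose from 191 ± 12.7 to 563 ± 46.5 ppm (1.56, adjusted p = 0.000201), and *Akt1* fell (−1.02, adjusted p = 0.000871). In E vs. RE, 2 rose and 1 fell (17.6%, against 9.37%, median 0.47, against 0.01). *Id2* rose (1.88, limma adjusted p = 0.00315), as did *Ghr*, the growth hormone receptor and a relative of *Prlr*, from 28.2 ± 0.228 to 99.7 ± 12.8 ppm (1.81, adjusted p = 0.00037). *Ccnd1*, cyclin D1, fell from 254 ± 60.6 to 96.5 ± 7.5 ppm (−1.38, limma adjusted p = 0.00196). By limma, 0 of these genes were called in E vs. M without the first or second M library (7 and 9 at an unadjusted p below 0.05) and 0 in E vs. RE without the first RE library (7).

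Of 20 further genes of milk proteins and milk secretion, 14 had a row and 11 were tested, and *Csn1s1*, *Csn1s2a* and *Lalba* were not analysed here. *Muc15*, *Slc34a2* and *Expi* among them were under 500 bases in both libraries of at least 1 stage and were tested through the stages where they were higher. In E vs. M, 1 rose and 4 fell in M (45.5% called, against 17.0% of all genes, with a median log2 fold change of −0.32, against 0.00). *Mfge8*, a protein of milk fat globules, rose from 142 ± 7.77 to 306 ± 7.49 ppm (1.11, limma adjusted p = 0.000516). *Btn1a1*, butyrophilin of the milk fat globule membrane, was at 2.69 and 5.14 ppm in the E libraries and 0.972 and 0.899 in the M libraries, and it fell (−1.88, limma adjusted p = 0.00341). *Muc15*, a mucin of that membrane, was at 1.26 and 0.734 ppm in E, 0.0479 and 0.0757 in M and 5.82 and 4.35 in RE. It fell in M (−2.73, limma adjusted p = 0.000735), rose from M to RE (4.99, adjusted p = 5.39e-05) and was higher in RE than in E (2.27, adjusted p = 0.00322). In M vs. RE, 4 rose and 1 fell in RE (45.5%, against 12.9%, median 0.85, against −0.02). *Xdh*, xanthine dehydrogenase, a protein of milk fat secretion, was at 165 and 180 ppm in E, 47.3 and 46.4 in M and 388 and 328 in RE, a 7.63-fold rise from M to RE (2.93, limma adjusted p = 1.43e-05). *Adfp*, the lipid droplet protein now named *Plin2*, fell from 772 ± 15.7 to 279 ± 11.7 ppm (−1.47, limma adjusted p = 0.000212). In E vs. RE, 3 rose and 0 fell (27.3%, against 9.37%, median 0.49, against 0.01). *Slc34a2*, a phosphate transporter of secretory epithelia, was at the floor in E and M and at 0.55 and 0.978 ppm in RE, at least 10.4-fold higher than in E (2.61, limma adjusted p = 0.00393). It passed the filter through the 2 RE libraries alone, so that p is a description. *Slc34a2* is counted among the 4 genes that rose in M vs. RE and the 3 that rose in E vs. RE. In E vs. RE, 0 were called by limma without the first or second RE library, with 3 and 5 at an unadjusted p below 0.05. *Xdh*, *Mfge8* and *Adfp* are also expressed in many tissues outside lactation.

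**Figure D4:**
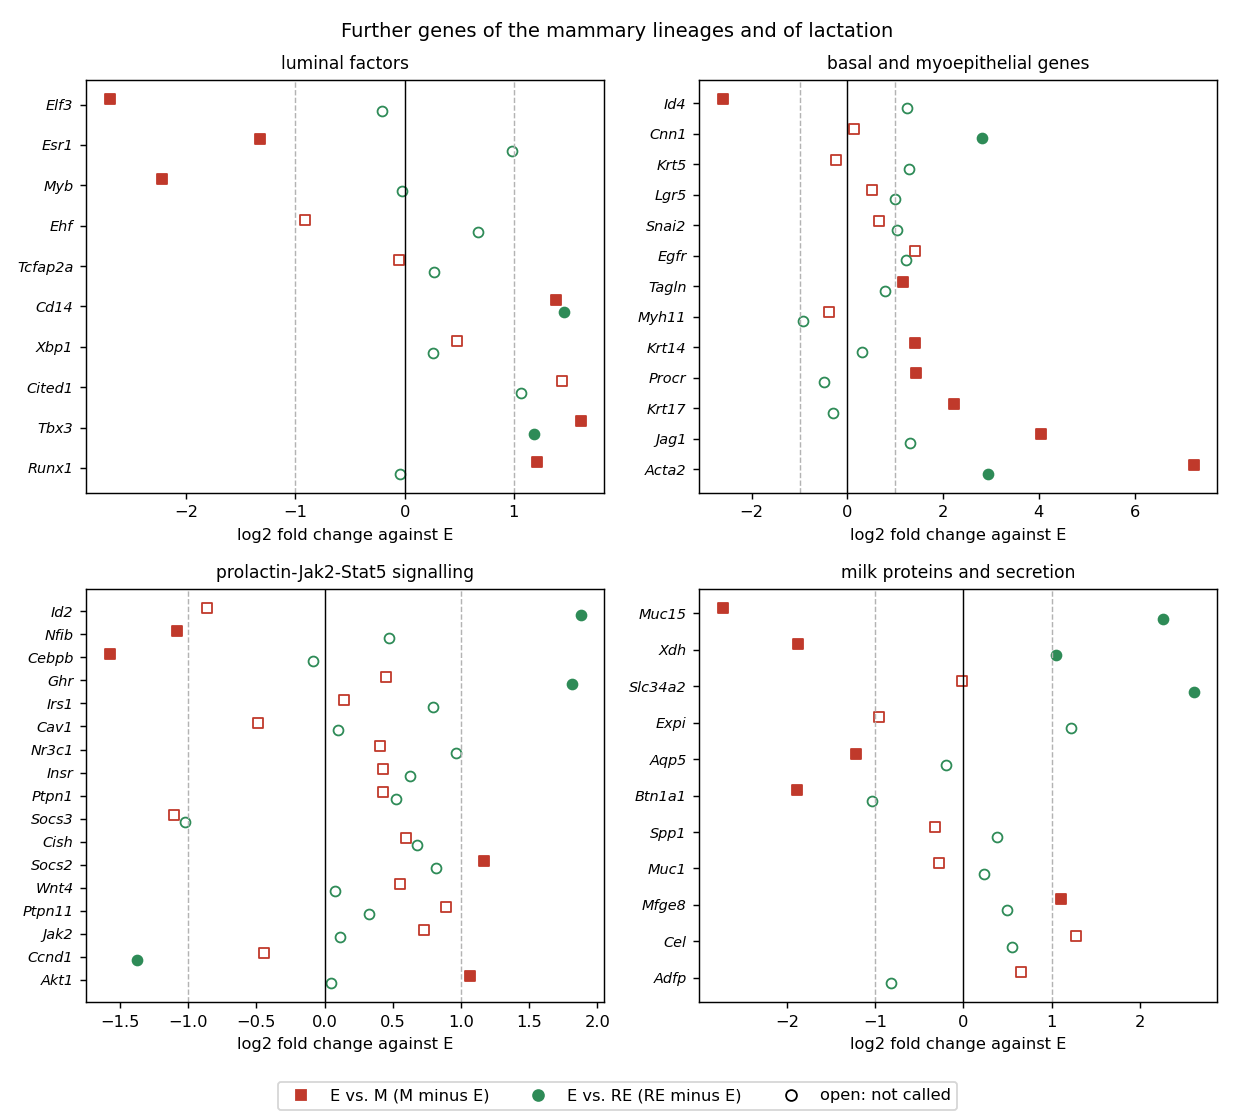
Log2 fold changes against the E cells of tested genes of the 4 further lists, as red squares for M (E vs. M) and green circles for RE (E vs. RE), filled where called and open where not, with dashed lines at the fold threshold and genes ordered by their change from M to RE. *Acta2* and *Jag1* stand out to the right in M, whereas *Elf3*, *Myb*, *Muc15*, *Xdh* and *Btn1a1* lie on the left in M.

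At the pseudocount of 0.1 ppm, the 3 genes with the widest range between stages were *Prlr*, *Elf5* and *Csn3* (4.23, 4.2 and 3.77 on the log2 scale). Each was at or near the floor in 1 stage, so this ranking depends on the pseudocount. With a pseudocount of 1, *Stat5a* changed most (2.05 in M vs. RE). There *Elf5* was at 1.87 in E vs. M, *Prlr* at 1.755 in M vs. RE and *Csn3* at −1.32 in E vs. RE. Among genes whose mean log2 level was 2 or more, those whose 6 centred log2 values lay closest to *Prlr*, *Elf5* and *Csn3* are named as a description. For *Prlr* they were *Ptger4* and *Ror1*, at Euclidean distances of 0.527 and 0.564, with *Ptger4* at 6.66 ± 0.491 ppm in E, 1.93 ± 0.356 in M and 38.04 ± 0.511 in RE. For *Elf5* they were *Cotl1* and *Glipr2*, at 0.533 and 0.683, with *Cotl1* at 9.04 ± 0.496, 159 ± 1.45 and 16.3 ± 2.61 ppm. For *Csn3* they were *Slc4a11* and *Wnt7a*, at 0.898 and 1.25, with *Slc4a11* at 95.9 ± 34.4, 51.9 ± 9.94 and 9.03 ± 2.36 ppm.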

How the data were processed

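Unique reads were mapped by the authors with TopHat2 and Bowtie (mouse build NCBI-m37). The deposited table holds whole numbers for 17428 genes in 6 libraries, not normalized, which behave as coverage (signal): between 44.8% and 48.4% of values up to 400 in each library are multiples of 50. The step that summed reads per gene and its annotation are not given in the sources used here. The authors' edgeR test needs read counts and was not used.

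Libraries were scaled by TMM without weights (30% of log ratios and 5% of levels trimmed at each end; factors from 0.871 to 1.12). All 6 libraries were fitted by group in limma 3.58.1 (R 4.3.3), with empirical Bayes moderation with a trend. The log2 scale with a pseudocount of 0.1 ppm understates changes of low genes. Intervals of log2 differences come from the limma standard errors over libraries, whereas intervals of read ratios and the floor cover counting error only. The fit was tested on data simulated for E vs. M, with the replicate spread of the RE libraries. In these, 200 genes of higher coverage were changed by 2 on the log2 scale. Of them 200 were recovered, and 1 unchanged gene was called. This test did not cover genes as low as *Elf5*, *Prlr* and *Csn3*, or the wider spread of the E libraries.

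The genes and lists were chosen with earlier results of these data known. Named in addition were, for each list and comparison, the 2 called genes with the largest change each way, *Jak2*, and the 2 genes closest in pattern to the 3 genes of widest range. Older symbols were matched through RefSeq synonyms. The result of 1 gene of the luminal list is not reported here, though the counts include it.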

Additional observations from a re-analysis of the deposited data

How the results depend on the processing

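Across 351 values of the 8 genes under the alternatives, 322 kept their direction and side of the threshold, 19 lost a call, 7 gained one, and 3 that were not called changed sign (in E vs. M, *Stat5b* at −0.17 under library totals and −0.24 without the first E library, and *Foxa1* at 0.08 without the second). With at least 500 bases required in every library, *Elf5*, *Prlr* and *Csn3* were not tested, so 1, 2 and 1 of the genes were called in E vs. M, M vs. RE and E vs. RE. In E vs. M, 4 genes were called at an adjusted p below 0.05 and 4 with library totals, which shifted the median of all genes in E vs. M from 0.00 to −0.29 and the share of calls that were higher from 50.6% to 30.5% (from 62.8% to 73.8% in M vs. RE). Depth limits *Wap* everywhere, *Csn3* in RE, *Prlr* in M and *Elf5* in E.

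Without 1 library at a time, the number of the 8 genes called ran from 1 to 3 in E vs. M, 3 to 5 in M vs. RE and 0 to 3 in E vs. RE. Over all genes, where 2358, 1789 and 1302 were called, it ran from 945 to 3362, 683 to 2337 and 44 to 2348, lowest without the first M library, the first RE library and the first RE library, and 525 were called in a fit of E and RE alone. Fewer libraries leave less residual freedom, and the lone library is assumed to vary like the others. In the same order of comparisons, the luminal genes ran from 2 to 7, 3 to 6 and 0 to 3, the basal genes from 2 to 9, 3 to 8 and 0 to 5, the prolactin genes from 0 to 8, 2 to 5 and 0 to 7, and the milk genes from 3 to 7, 3 to 6 and 0 to 3. Where such a list had 0 calls by limma, between 3 and 9 of its genes had an unadjusted p below 0.05. In E vs. RE, the luminal genes had 1 call without the filter and 0 in the fit of E and RE alone (5 at an unadjusted p below 0.05), the basal genes 4 at an adjusted p below 0.05, 1 with the filter in every library and 1 in the fit of E and RE alone, the prolactin genes 1 in that fit, and the milk genes 1 with the filter in every library and 0 in that fit (6 at an unadjusted p below 0.05). The milk genes had 3 calls in M vs. RE with the filter in every library, and the prolactin genes 2 in E vs. M with library totals. The causes were not tested. These alternatives for the lists were added after the data were seen.

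Whether the libraries are paired by their shared replicate numbers was not settled. The deviations of same-numbered libraries had correlations over genes of 0.267 (E, M), 0.058 (E, RE) and 0.116 (M, RE). With 2 libraries per stage, these values cannot decide it. A replicate block in the fit gave calls for 2, 5 and 3 of the 8 genes, with no call changed, and for 2431, 1830 and 1284 of all genes.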
